A study of Mus musculus with 6 samples.

Results

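*Shh* encodes Sonic hedgehog, the secreted ligand that activates Hh signaling, and its regulatory domain was examined here as the set of ChIP-seq peaks around the gene. Members were all peaks of the 3 deposited lists whose midpoint lay within 1 Mb of the *Shh* gene body (ENSMUSG00000002633.4, chr5:28456815-28467256, minus strand, mm10, GENCODE vM21). This rule gave 29 of the 70762 peaks in the series. They comprised 25 Hand2 MNP peaks, 3 Gli3 MNP peaks and 1 Gli3 whole face peak, in a window of 2010.4 kb (chr5:27456815-29467256). The rule used position only, and neither peak strength nor sequence chose any member.

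The peaks came from anti-FLAG ChIP-seq on CD1 mouse embryos at E11.5 that carried a FLAG tag in the endogenous gene. The 3 groups were Hand2 3XFlagbio MNP (the mandibular prominence, the tissue of the future lower jaw), Gli3 3XFlagbio MNP and Gli3 3XFlagbio whole face, with 2 replicates each. These are the genotypes as the sample labels spell them, while the study's methods list the Hand2 allele as Hand2 3xFlag. Tissue was pooled from several embryos and not sorted, so a peak could not be assigned to neural crest cells (NCCs), epithelium or another cell type. Sample labels state E11.5 and the series description E10.5, and the labels were followed. Each list held the peaks shared by both replicates and gave start and end positions without a height or a read count. The depth behind a peak is therefore unknown, no value below has an error between replicates, and no test between groups could be made. Where shares are given, 95% Wilson intervals cover counting error only, and neighboring peaks are not independent.

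Gli3 is one of the transcription factors (TFs) that carry the Hh signal to the genome, where it acts as a repressor when the ligand is absent. It binds the 8-mer GACCACCC, the canonical Gli-binding motif (cGBM), and more weakly the divergent form GACCTCCC (dGBM). Hand2 is a basic helix-loop-helix TF of the MNP and the limb bud that binds E-boxes (CANNTG), with CAGATG as its preferred form. In the limb bud, *Shh* is switched on by a distant enhancer, the ZRS, which lies in an intron of the neighboring gene *Lmbr1* and is bound by Hand2. In the face, *Shh* is made by epithelium, and the mesenchyme beneath it responds.

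The Hand2 MNP peak over the ZRS was the widest of the 25 Hand2 peaks in the domain. It spanned 930 bp (chr5:29314558-29315487) in intron 5 of *Lmbr1*, 847.8 kb upstream of the *Shh* transcription start site (TSS). It was wider than 93.5% of all Hand2 MNP peaks. It was also the only Hand2 peak of the domain that was split into subpeaks, with 2 in each replicate. The domain share of peaks split in both replicates, 1 of 25 (4%), was near the 5.72% of all Hand2 MNP peaks. The peak lay entirely within the ZRS as RefSeq annotates it (chr5:29314497-29315862) and covered 68.1% of that region. All 9 protein-binding sites that RefSeq lists for the ZRS, for ETS-family, HOXD and Hand2 proteins, fell inside the peak.

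The peak held 7 E-boxes, of which 2 were CAGATG, and no GBM of either form. One CAGATG (chr5:29315244-29315249) was on the minus strand, so the plus strand reads CATCTG. It lay 225 bp from the midpoint of the peak, inside the fragment that RefSeq annotates as bound by Hand2 and inside an annotated HOXD site. The other (chr5:29314703-29314708) lay 316 bp from the midpoint on the opposite side, outside the region annotated as highly conserved. Both stretches are shown because they carry the 2 CAGATG of the peak over the distal *Shh* enhancer. They were chosen after the motif positions were seen, and are given as the plus strand of GRCm38 with E-boxes in capitals, the first for chr5:29315142-29315328 and the second for chr5:29314646-29314765.
ZRS, annotated Hand2-binding fragment: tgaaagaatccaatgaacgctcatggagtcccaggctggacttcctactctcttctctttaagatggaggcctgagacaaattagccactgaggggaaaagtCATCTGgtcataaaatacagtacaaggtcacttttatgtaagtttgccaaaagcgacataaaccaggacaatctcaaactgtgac
ZRS, around the other CAGATG: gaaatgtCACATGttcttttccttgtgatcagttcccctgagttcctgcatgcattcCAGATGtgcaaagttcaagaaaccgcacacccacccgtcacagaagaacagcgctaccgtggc
The fragment annotated as bound by Hand2 held only this E-box, and the other stretch held a CACATG beside its CAGATG.

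**Figure D1:**
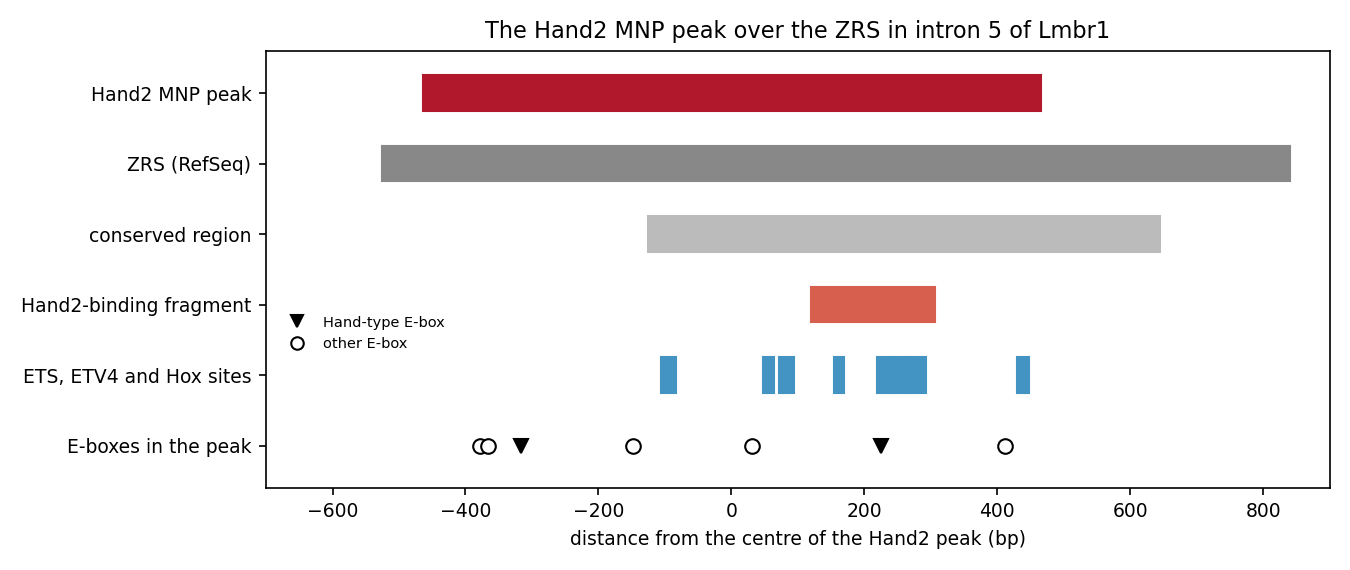
The Hand2 MNP peak, the ZRS, its conserved part and its annotated binding sites, drawn by distance in bp from the centre of the peak, with the plus strand running to the right. Triangles mark the 2 Hand-type E-boxes and open circles the other E-boxes among the 7 in the peak, and all 9 annotated binding sites lie under the 930 bp peak.

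Beyond the ZRS, *Lmbr1*, a gene for a membrane protein that is the host of the enhancer, held 2 further Hand2 peaks and the only Gli3 whole face peak of the domain. The first Hand2 peak (chr5:29313108-29313351, 244 bp) lay in the same intron 5, 846.0 kb upstream of the TSS, and was the narrowest Hand2 peak of the domain. It held 3 E-boxes, none of them CAGATG. The second (chr5:29286264-29286534, 271 bp) lay in intron 9, 819.1 kb upstream, and 89.3% of its bases were annotated repeats. The Gli3 whole face peak (chr5:29235951-29236155, 205 bp) lay in intron 15, 768.8 kb upstream, and all of its bases were repeats (100%). No Gli3 MNP peak lay in *Lmbr1*. The 3 intronic peaks other than the ZRS follow, with E-boxes, GACCTCCC and CCTCC (the core of the dGBM, GGAGG on the other strand) in capitals. The intron 5 peak holds no CCTCC.
Hand2, *Lmbr1* intron 5: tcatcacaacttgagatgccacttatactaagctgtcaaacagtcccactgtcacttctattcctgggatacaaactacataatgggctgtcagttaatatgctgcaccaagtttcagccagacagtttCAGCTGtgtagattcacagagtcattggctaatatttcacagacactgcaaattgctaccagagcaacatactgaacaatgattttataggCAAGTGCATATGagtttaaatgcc
Hand2, *Lmbr1* intron 9: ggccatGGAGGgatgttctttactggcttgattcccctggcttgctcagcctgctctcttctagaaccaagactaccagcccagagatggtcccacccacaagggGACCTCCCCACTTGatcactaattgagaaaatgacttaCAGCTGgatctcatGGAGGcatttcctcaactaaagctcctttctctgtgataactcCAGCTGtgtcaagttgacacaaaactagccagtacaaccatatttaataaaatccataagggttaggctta
Gli3 whole face, *Lmbr1* intron 15: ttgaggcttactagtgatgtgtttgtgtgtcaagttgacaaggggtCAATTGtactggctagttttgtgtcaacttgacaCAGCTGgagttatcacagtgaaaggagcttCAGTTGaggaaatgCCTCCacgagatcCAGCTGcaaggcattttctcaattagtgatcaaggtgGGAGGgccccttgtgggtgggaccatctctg
In the intron 9 peak, the dGBM GACCTCCC and the E-box CACTTG stood directly next to each other, with 0 bp between them. This 14 bp arrangement occurred in 3 of 59583 Hand2 MNP peaks (0.00503%), and all 3 consisted mainly of repeat. It also occurred in 1 Gli3 MNP peak (0.0184%) and 1 Gli3 whole face peak (0.0174%), each mainly repeat as well.

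The intron 9 and intron 15 peaks shared sequence with each other and with the Hand2 peak nearest to *Shh* on its downstream side. Among 404 pairs of non-overlapping member peaks, 3 pairs shared an exact stretch of at least 20 bp on either strand, and these pairs were formed by these 3 peaks. The Gli3 whole face peak and the intron 9 Hand2 peak had 49 bp in common, in opposite orientation. With the downstream Hand2 peak, the Gli3 whole face peak shared 26 bp and the intron 9 peak 25 bp. The stretches lay wholly within annotated repeats. A 22 bp core common to all 3 peaks is printed to identify the repeat.
Shared core, as in the Gli3 whole face peak: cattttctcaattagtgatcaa
The core occurred 17 times in the *Shh* domain, so most copies carried no peak. In the whole lists it occurred in 351 Hand2 MNP peaks (0.589%), in 26 Gli3 MNP peaks (0.479%) and in 93 Gli3 whole face peaks (1.62%). The shared stretches and the joined dGBM and E-box were looked for after the sequences had been seen. How reads from repeat copies were placed was not analysed here, and its part in these 3 peaks was not tested.

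Close to *Shh*, Hand2 peaks lay upstream of the gene and none lay in its body. The nearest was 2428 bp upstream of the TSS (chr5:28469514-28469855, 342 bp), in the noncoding genes *9530036O11Rik* and *Gm26894*. It held 1 CAGATG, 16 bp from its midpoint, and 3 further E-boxes, all of the form CAAATG. The next was 25.5 kb upstream (chr5:28492533-28493022, 490 bp) and held 5 E-boxes, 4 of them CACATG and 1 CAGCTG, without CAGATG, and one of the CACATG lies outside the stretch printed. The third was 306.0 kb upstream (chr5:28773036-28773460, 425 bp), with 3 E-boxes. The middle 300 bp of the first 2 follow, since they are the peaks closest to the *Shh* promoter, with E-boxes in capitals.
Hand2, 2428 bp upstream (chr5:28469535-28469834): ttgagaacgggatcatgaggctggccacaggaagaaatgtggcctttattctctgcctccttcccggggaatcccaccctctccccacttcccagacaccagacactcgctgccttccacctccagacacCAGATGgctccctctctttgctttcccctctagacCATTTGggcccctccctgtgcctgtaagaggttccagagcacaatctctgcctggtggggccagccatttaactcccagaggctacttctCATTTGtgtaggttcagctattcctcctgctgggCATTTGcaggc
Hand2, 25.5 kb upstream (chr5:28492628-28492927): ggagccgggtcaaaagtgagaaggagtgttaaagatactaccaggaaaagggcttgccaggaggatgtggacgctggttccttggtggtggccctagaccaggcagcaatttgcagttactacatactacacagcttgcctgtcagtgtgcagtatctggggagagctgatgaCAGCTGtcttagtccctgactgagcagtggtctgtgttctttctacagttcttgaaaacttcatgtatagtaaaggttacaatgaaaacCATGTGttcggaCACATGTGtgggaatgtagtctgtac
No Gli3 peak of either list lay near these sites. The closest Gli3 MNP peak to the *Shh* TSS was 149.8 kb away and the closest Gli3 whole face peak 768.8 kb away. Set beside all 21938 protein-coding genes, 34.4% had a Hand2 MNP peak nearer to their TSS than *Shh*, 60.8% a nearer Gli3 MNP peak and 88.2% a nearer Gli3 whole face peak.

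On the downstream side, no peak lay within 134.0 kb of the TSS, and the first peaks were in or at *Rbm33*, which encodes an RNA-binding protein. The nearest Hand2 peak (chr5:28333077-28333350, 274 bp) lay in intron 2 of *Rbm33*, 134.0 kb from the *Shh* TSS, and 48.5% of it was repeat. It had 2 E-boxes, as its sequence shows with E-boxes in capitals.
Hand2, *Rbm33* intron 2: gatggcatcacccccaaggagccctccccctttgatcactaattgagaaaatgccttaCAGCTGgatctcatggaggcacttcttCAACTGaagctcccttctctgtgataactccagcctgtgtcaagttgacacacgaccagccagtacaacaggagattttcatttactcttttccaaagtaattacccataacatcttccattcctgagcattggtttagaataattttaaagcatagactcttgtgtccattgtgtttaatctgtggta
A further Hand2 peak lay in intron 1 of *Rbm33* (chr5:28317944-28318323, 149.1 kb away), and another covered the *Rbm33* TSS (chr5:28316809-28317508, 150.1 kb away). The Gli3 MNP peak nearest to *Shh* (chr5:28317014-28317846, 833 bp) also covered the *Rbm33* TSS. It shared 495 bp with the Hand2 peak there, which covered 59.4% of it. This Gli3 peak was split into 2 subpeaks in replicate 1 and was single in replicate 2. It held 4 CCTCC and 1 E-box, and neither GACCACCC, GACCTCCC nor CAGATG.

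**Figure D2:**
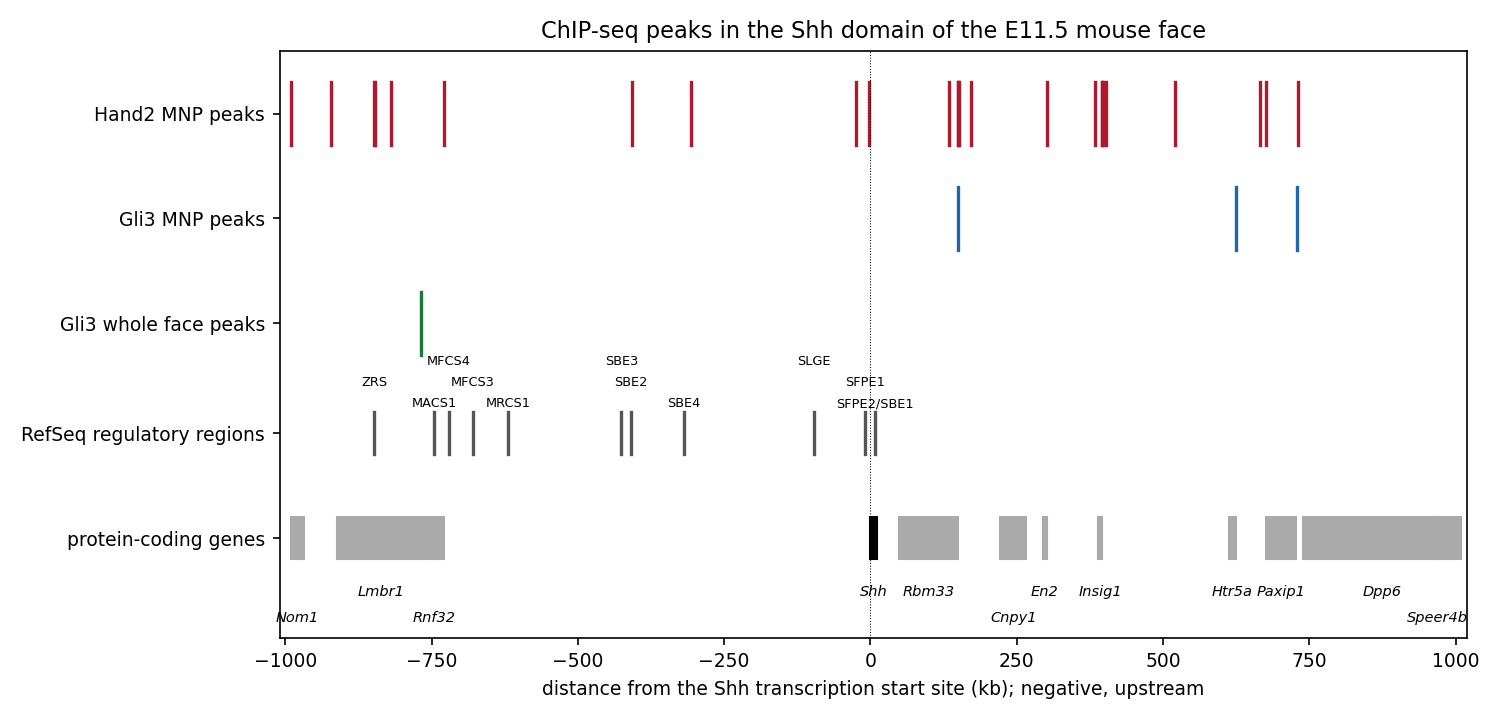
Peaks of the 3 lists, the 11 regulatory regions that RefSeq annotates and the protein-coding genes, drawn by distance in kb from the *Shh* TSS, with upstream on the left. Each tick is 1 peak or region. The 25 Hand2 peaks reach across the domain, the 3 Gli3 MNP peaks lie downstream of *Shh*, and the Gli3 whole face peak lies in *Lmbr1*.

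Gli3 was thus represented by 4 peaks in the domain, none of them shared between the MNP and whole face lists. Per the study, the whole face comprised the frontonasal, maxillary and mandibular prominences, so it includes the MNP. The second Gli3 MNP peak (chr5:27737188-27737469, 282 bp) lay between the 3′ ends of *Dpp6* and *Paxip1*, 729.9 kb downstream of the *Shh* TSS, and was wholly covered by a Hand2 peak of 405 bp (chr5:27737095-27737499). It held 3 E-boxes, all CACCTG, and no GBM. The third (chr5:27841623-27841874, 252 bp) was a Gli3-alone peak, 401 bp from the TSS of *Htr5a*, a serotonin receptor gene, with 1 E-box (CAGCTG) and no GBM. The sequences of these 2 Gli3 MNP peaks show the absence of both GBM forms, with E-boxes in capitals.
Gli3/Hand2 overlapping, between *Dpp6* and *Paxip1*: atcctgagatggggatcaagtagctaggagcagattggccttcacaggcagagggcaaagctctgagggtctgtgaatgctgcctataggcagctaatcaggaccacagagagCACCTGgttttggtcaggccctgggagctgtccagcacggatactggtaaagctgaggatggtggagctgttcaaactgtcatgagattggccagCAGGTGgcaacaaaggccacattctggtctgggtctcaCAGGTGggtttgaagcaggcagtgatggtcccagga
Gli3-alone, upstream of *Htr5a*: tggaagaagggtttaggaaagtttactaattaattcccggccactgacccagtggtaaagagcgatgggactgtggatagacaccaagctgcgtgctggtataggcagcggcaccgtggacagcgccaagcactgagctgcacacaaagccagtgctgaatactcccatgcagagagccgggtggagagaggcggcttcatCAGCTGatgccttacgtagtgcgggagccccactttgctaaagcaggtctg
Of the 3 Gli3 MNP peaks, 2 touched a Hand2 peak by at least 1 bp (66.7%, Wilson interval 20.8 to 93.9%), against 61.4% of all Gli3 MNP peaks. With 3 peaks this interval is too wide to tell the domain from the list. The Gli3 whole face peak touched neither a Hand2 nor a Gli3 MNP peak, where 47.6% and 37.6% of that list did, and 0 of 3 Gli3 MNP peaks touched a whole face peak, where 39.2% of the list did. From the Hand2 side, 2 of 25 peaks (8%, 2.22 to 25%) touched a Gli3 MNP peak against 5.89% of the whole list, and 0 of 25 (0 to 13.3%) a Gli3 whole face peak against 4.54%.

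Across the domain the 25 Hand2 peaks were spread unevenly. There were 15 downstream and 10 upstream of the TSS, at distances of 2428 bp to 990.1 kb with a median of 397.0 kb. The domain held 12.4 Hand2 peaks per Mb, against 21.9 per Mb over chromosomes 1 to 19, X and Y and 23.1 per Mb on chromosome 5. For Gli3 MNP the domain held 1.49 peaks per Mb against 1.99 over the same chromosomes, and for Gli3 whole face 0.497 against 2.11. Of 20 bins of 100 kb around the TSS, 8 held no Hand2 peak and 2 held 5. One of the bins with 5 contained the *Rbm33* promoter, and the other those of *En2* and *Insig1*. *Insig1*, which encodes a regulator of cholesterol synthesis, had 4 Hand2 peaks within 10 kb of its TSS, not all of them in that bin.

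**Figure D3:**
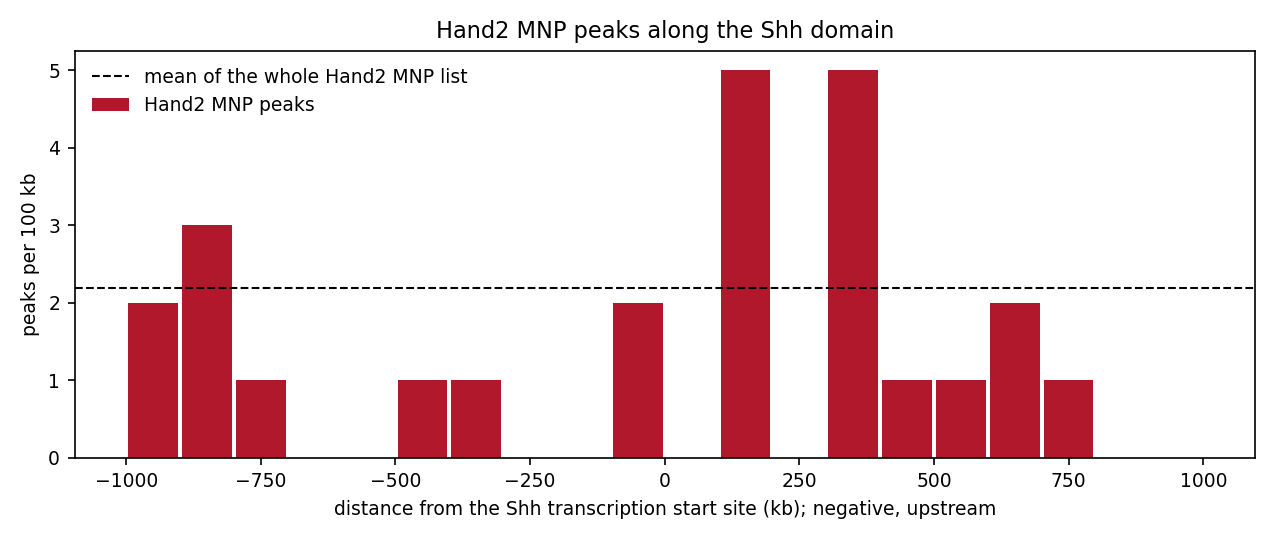
Hand2 MNP peaks per 100 kb by distance from the *Shh* TSS in kb, with upstream on the left. Bars are counts of peaks, the dashed line is the mean of the whole list, and the tallest bars, of 5 peaks each, lie downstream of *Shh*.

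The stretch between *Shh* and *Rnf32*, a RING finger gene, is a gene desert of 728.7 kb that holds most of the known long-range enhancers of *Shh*. It held no Gli3 peak of either list. It held 5 Hand2 peaks, or 6.86 per Mb: the 3 upstream peaks described above, one 406.7 kb upstream (chr5:28873820-28874072) and one over the *Rnf32* TSS at its far end. The longest gaps between neighboring Hand2 members, of 321.5 kb and 280.0 kb, both lay in this desert. The next longest measured 144.7 kb and lay between *Paxip1* and *Insig1*. At the downstream end of the window no Hand2 peak lay beyond 730.0 kb. This end is not among the gaps above, which run between members only. The next Hand2 peak lay outside the window, 1113159 bp downstream of the gene body. The stretch without a Hand2 peak there was therefore longer than either gap in the desert.

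RefSeq annotates 11 regulatory regions of *Shh* in the domain, most of them enhancers for the brain, the floor plate, the limb and the lining of the mouth, gut and lung. Of these, 1 touched a Hand2 MNP peak, the ZRS (9.09%, Wilson interval 1.62 to 37.7%), whereas 47.6% of 813 such regions across the genome did. None of the 11 touched a Gli3 peak of either list (0 to 25.9% each). Of the 813 regions, 6.52% touched a Gli3 MNP peak and 13.2% a Gli3 whole face peak. Both shares lie within that interval, so the count of 0 does not separate the domain from the genome. These comparisons were chosen after the peak positions were known. Next in distance came the ventral diencephalon enhancer SBE2, 408.8 kb upstream, whose edge was 1.4 kb from a Hand2 peak. The floor plate enhancer SFPE1 was 6.2 kb, the pharyngeal and soft palate enhancer MFCS4 7.1 kb and the intronic brain enhancer SFPE2/SBE1 9.4 kb from the nearest Hand2 peak. The oral epithelium enhancer MRCS1, 618.9 kb upstream, was the farthest from any Hand2 peak at 109.0 kb. Gli3 MNP peaks were 140969 bp or more from each of the 11 regions, and the Gli3 whole face peak was closest to the respiratory and digestive enhancer MACS1, at 23.1 kb.

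All 25 Hand2 peaks of the domain held at least 1 E-box, with 87 in all (each form counted together with its reverse complement). The share of peaks, 100% (Wilson interval 86.7 to 100%), was near the 92.3% of all Hand2 MNP peaks. The most frequent form was CAGCTG (16 in 10 peaks), followed by CACCTG (14 in 9 peaks), CACATG (13 in 8 peaks) and CAGATG (12 in 10 peaks). CAGATG was thus present in 10 of 25 peaks (40%, Wilson interval 23.4 to 59.3%), against 47.1% of all Hand2 MNP peaks. In the middle 200 bp, which does not depend on peak width, the share was 28% in the domain and 28.2% over the list. Neither comparison separated the domain from the list. The 3 peaks with the most CAGATG were that of the ZRS (2), that 2428 bp upstream of *Shh* (1, the closest to the TSS among 8 peaks with 1) and a peak 1102 bp from the *Insig1* TSS (chr5:28070051-28070472, 2). For comparison, 17.2% of 32851 RefSeq promoter sequences of 300 bp contained CAGATG. In the 300 bp centred on the midpoint of each Hand2 peak, the share was 36% in the domain and 35.9% over the list. These 300 bp run past the ends of narrower peaks.

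The cGBM was found in none of the 29 peaks, with 0 of 25 Hand2 peaks (0 to 13.3%) against 1.49% of that list. In the Gli3 lists, the 8-mer with any base in place of the N (GACCNCCC, which covers both GBM forms) was found in 0 of 3 MNP peaks (0 to 56.1%) against 26.7% of that list, and in 0 of 1 whole face peak against 28.7%. The dGBM GACCTCCC was found in 3 of 25 Hand2 peaks (12%, Wilson interval 4.17 to 30%), against 1.82% of that list. In the 300 bp centred on the midpoint, which run past the ends of narrower peaks, it was in 2 of 25 (8%, 2.22 to 25%), against 1.04% of the list. RefSeq promoter sequences of 300 bp held it in 1.28%. The 3 peaks with GACCTCCC were the repeat peak of *Lmbr1* intron 9, the peak over the *Rnf32* TSS (chr5:29195575-29196253) and a narrow peak 9887 bp from the *Paxip1* TSS (chr5:27801452-27801704, 253 bp). Short stretches of 30 bp around the sites show that their flanks differ, with GACCTCCC in capitals on either strand (GGGAGGTC on the other), as well as an E-box where present.
*Lmbr1* intron 9: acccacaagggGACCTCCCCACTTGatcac
*Rnf32* TSS: agtgttggggcGGGAGGTCcgggtcgctgt
Near *Paxip1*: tccatggactcGGGAGGTCttttggaatgc
None of these 3 peaks touched a Gli3 peak or contained CAGATG. In the middle 200 bp only the *Lmbr1* site was left, in 4% of the 25 peaks against 0.683% of the list, and that site lies in a repeat. The exact 8-mers used here are stricter than the study's classes. Those classes divided Gli3/Hand2 overlapping peaks. A partial match to a motif counted as a cGBM, and at least CCTCC in a peak without a cGBM counted as a dGBM. The count of CCTCC here took all Hand2 peaks, with or without Gli3, and left none out for a cGBM. CCTCC was present in 18 of 25 Hand2 peaks (72%, Wilson interval 52.4 to 85.7%), against 74.1% of that list.

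The Hand2 peaks of the domain were narrower than the list as a whole. Their median width was 382 bp against 451 bp, and 8 of 25 were at least as wide as the list median. Median GC content was 47.8% against 46.9%, with a range of 32.8 to 74.1%. There were 17 intergenic peaks, 6 in introns of coding genes and 2 in exons, and 6 of 25 had their midpoint within 1 kb of a coding TSS. These promoter peaks belonged to *Paxip1*, *Insig1* (2 peaks), *En2*, a homeobox gene of the midbrain and hindbrain, *Rbm33* and *Rnf32*. The peak farthest from the TSS lay in an exon of *Nom1*, 990.1 kb upstream (chr5:29456984-29457656).

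The entry names number the peaks called in each replicate in genomic order, which shows how much of each replicate entered the shared list. The numbers of the 25 Hand2 entries ran over 30 peaks of replicate 1 and 29 of replicate 2, so 5 and 4 replicate peaks within the same stretch were not in the shared list. This left 83.3% and 86.2% of replicate peaks in the domain, against 80.7% and 73% of the highest number over the list. For Gli3 MNP, the 3 entries ran over 7 peaks of replicate 1, of which 4 were not shared, and over 3 of replicate 2, all shared. Over the whole list the numbers present made up 28.4% of the highest number in replicate 1 of Gli3 MNP and 93.9% in replicate 2. Replicate peaks outside the shared list were not analysed here, so a Gli3 site called in 1 replicate of the domain would not appear among the members.

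Among protein-coding genes, the number of peaks around *Shh* was low in all lists. With 25 Hand2 MNP peaks within 1 Mb, *Shh* had more peaks than 17% of the 21938 genes, and the median gene had 55. Its 3 Gli3 MNP peaks exceeded the counts of 22.4% of genes (median 6), and its 1 Gli3 whole face peak those of 8.4% (median 5). The window around *Shh* also held few genes, 12 protein-coding genes against a median of 31 over all such windows, and the part of gene density in the low count was not tested. The other Hh ligands lay in denser surroundings. *Ihh*, the ligand of growing cartilage, had 82 Hand2 MNP, 14 Gli3 MNP and 13 Gli3 whole face peaks within 1 Mb, and *Dhh*, the ligand of the testis and peripheral nerve, had 72, 11 and 9.

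**Figure D4:**
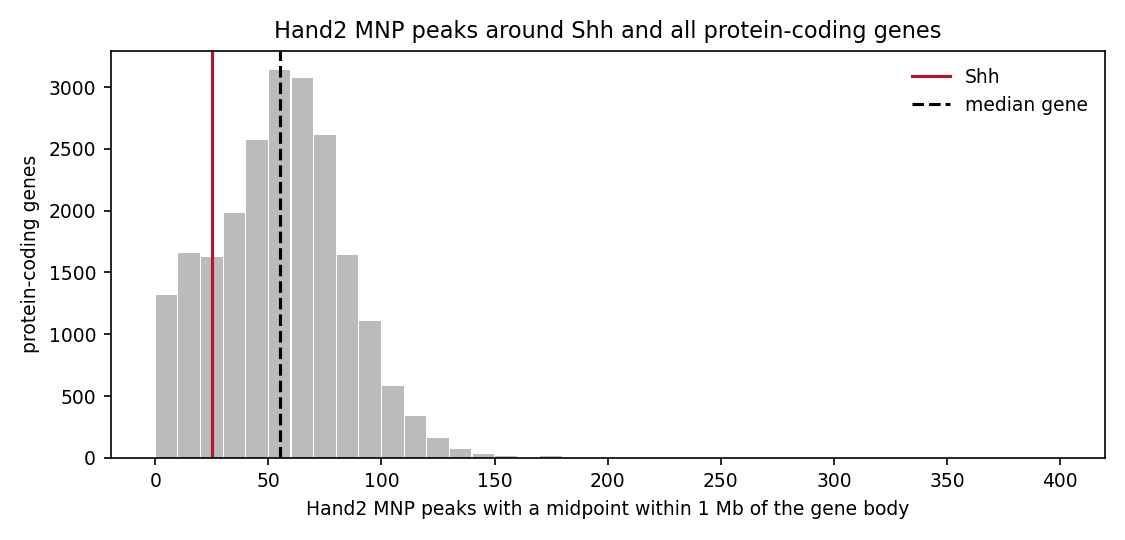
Number of protein-coding genes by the number of Hand2 MNP peaks within 1 Mb of the gene body, in bins of 10 peaks. The solid line marks *Shh* with 25 peaks and the dashed line the median gene with 55.

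*Shh* had a Hand2 peak nearer to its TSS than the other ligands did. Its nearest Hand2 peak was 2.4 kb from the TSS, while that of *Ihh* was 52.8 kb and that of *Dhh* 36.1 kb away. None of the 3 ligand genes, and none of the 3 genes of ligand processing and release, had a Gli3 MNP or Gli3 whole face peak within 10 kb of the TSS. Only 19.9% and 9.98% of all protein-coding genes had one in these lists, so a count of 0 of 3 is near the background. *Hhat*, which attaches palmitate to the ligand, *Disp1*, which releases it from the cell, and *Scube2*, which carries it away, had their nearest Gli3 MNP peaks at 52.1, 447.8 and 94.6 kb.

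Downstream of the ligand, Gli3 MNP peaks were found at most genes. They lay within 10 kb of the TSS in 3 of 5 receptor and coreceptor genes, 3 of 3 transducer genes and 3 of 3 *Gli* genes, which makes 9 of the 17 Hedgehog genes, against 19.9% of all protein-coding genes. *Ptch1*, the receptor that *Shh* binds and a target of the pathway, had 4 Gli3 MNP peaks within 10 kb and 6 in the whole face list. The coreceptor *Cdon* and the decoy receptor *Hhip* had no Gli3 MNP peak within 10 kb, with the nearest at 137.4 and 27.3 kb. In the whole face list 4 of 17 had a peak within 10 kb (*Ptch1*, *Hhip*, *Kif7* and *Gli1*), against 9.98% of genes. Hand2 MNP peaks lay within 10 kb in 14 of 17, against 48.4%, and the 3 without were *Ihh*, *Dhh* and *Scube2*. *Shh* was the only ligand gene with one.

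**Figure D5:**
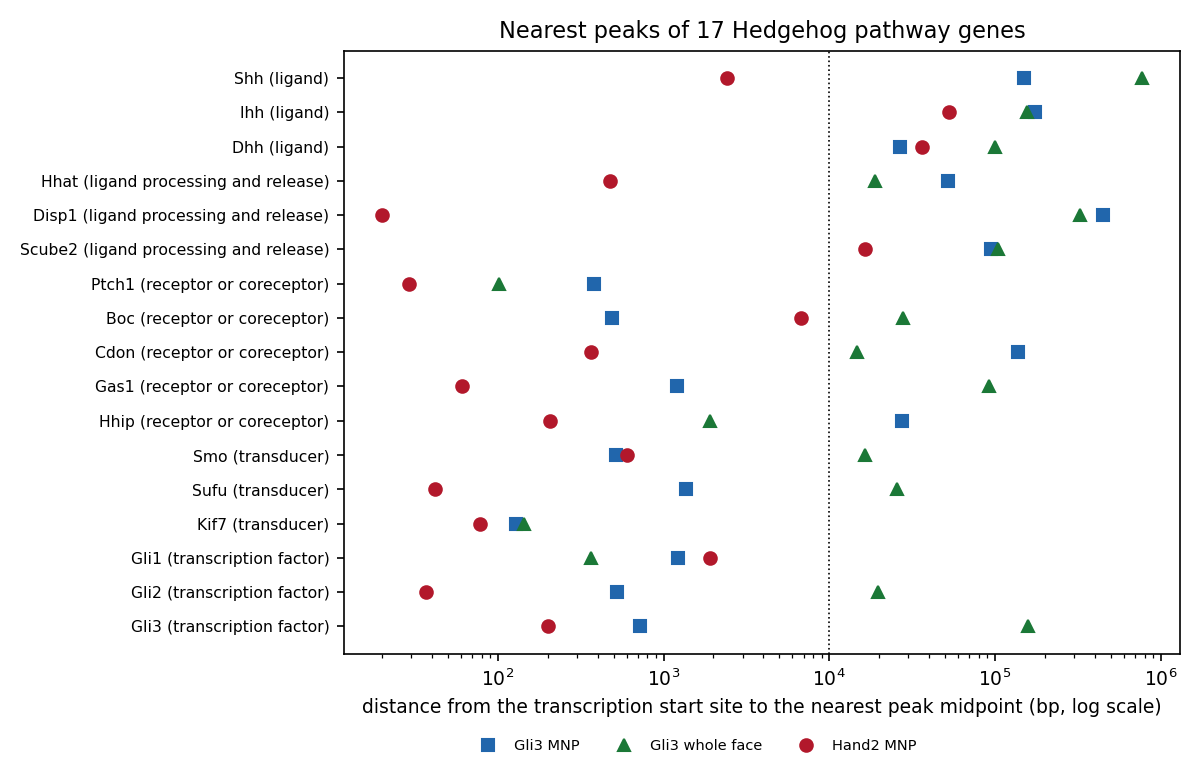
Distance in bp, on a log axis, from the TSS of each of 17 Hedgehog pathway genes to the nearest peak midpoint of each list, with 1 symbol per list and the dotted line at 10 kb. For *Shh* the Hand2 MNP symbol lies at 2428 bp, while the symbols of both Gli3 lists lie beyond 100 kb.

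The limit of 1 Mb divided the peaks as follows. For Hand2, the last peak inside lay 990064 bp upstream and 719518 bp downstream of the gene body, and the first outside lay 1049185 bp upstream and 1113159 bp downstream. For Gli3 MNP, the farthest member lay 719487 bp downstream, and the first peaks outside lay 1269068 bp upstream and 2926779 bp downstream. For Gli3 whole face, the single member lay 768797 bp upstream, and the first peaks outside lay 1705120 bp upstream and 1407218 bp downstream.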

How the data were processed

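FLAG ChIP-seq was performed on pooled tissue in 3 groups of 2 replicates (6 samples). Per the study's methods, reads of 75 bp were aligned by the authors to mm10 (bwa), and replicate peaks were merged (bedtools), and the submitters' processing notes also name HOMER. No source used here names the caller behind these lists. The deposited lists hold positions and entry names, so the authors' values carry no score or count and the depth per sample is unknown, which leaves peak strength out of every result.

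Groups came from the sample labels, and each list was read as a pooled list of its group. Members, overlap (1 bp), motifs (exact, both strands) and distances to TSSs were computed with Python 3.11.15, figures with matplotlib 3.10.9. Genes came from GENCODE vM21, sequences and regulatory regions from RefSeq for GRCm38 (the build mm10 names), which has the chromosomes of all but 3 Gli3 MNP peaks. The programs were tested on simulated data. No test was run, since no value per replicate exists. Distances run from peak midpoint to TSS, and GC and repeats from the reference. Promoter means within 1 kb of a coding TSS.

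Named genes were *Shh*, coding genes of the domain that hold or lie within 10 kb of a peak, and the Hedgehog pathway genes, of which 17 are given and 1 is not reported here. Peaks described singly were all Gli3 peaks and Hand2 peaks touching them, peaks in *Shh* or *Lmbr1*, the 3 Hand2 peaks nearest on each side, the 3 with most CAGATG and those with a GBM 8-mer. Members and lists were chosen with earlier results of these data known. Alternatives were windows of 500 and 100 kb, other overlap rules, wider peaks, no promoter peaks, other motif scopes and other TSS distances.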

Additional observations from a re-analysis of the deposited data

How the results depend on the processing

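No paired analysis was possible because each list holds both replicates merged, and leaving out a replicate could not be done for the same reason. Of 42 alternative values, 26 kept the main value within its interval or within 1.5 times, and 16 did not. Most were counts, distances or shares, which have no direction that could turn. The count of members followed the window: with 500 kb there were 15 Hand2, 1 Gli3 MNP and 0 Gli3 whole face peaks, and with 100 kb there were 2, 0 and 0. Keeping only members no narrower than their list's median left 8 Hand2, 1 Gli3 MNP and 0 Gli3 whole face peaks, and 1 Hand2 peak in *Lmbr1* introns in place of 3, that of the ZRS. Without promoter peaks 1 of 3 Gli3 MNP peaks remained. The share of Gli3 MNP peaks that touch a Hand2 peak became 100% with the 500 kb window and with the wider peaks, where a single peak was left, and the whole face share had no value under either. The Hedgehog genes with a Gli3 peak within 10 kb numbered 4 with the whole face list in place of 9. With a gap of up to 5 kb and 10 kb allowed, alternatives chosen after seeing the data, Hand2 peaks reached 2 and 5 of the 11 annotated regulatory regions. The rank of *Shh* among genes by Hand2 peaks stayed between 17% and 22.3% of genes with fewer.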
